A study of Mus musculus with 8 samples.

Results

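The 38 protein-coding Hox genes analysed here were taken from the 4 mouse Hox clusters. They were found by symbol among 52636 gene identifiers in colon RNA-seq libraries, and all 38 matched. The low-count filter was passed by 26 of them. Of the 12 under it, 5 had 0 counts in every library.

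Hox genes encode homeodomain transcription factors that give cells an address along the axis from head to tail. The order of the genes along a cluster follows the order of the body regions that express them, and genes at the same place in different clusters form a paralogue group with 1 number. In the mouse gut, genes of high paralogue number mark the hindgut: Hoxa13 and Hoxd13 act in its distal end, and Hoxd13 takes part in forming the muscle of the anal sphincter.

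The libraries came from colon of C57BL/6 female mice, wild type, 6 weeks old and kept germ-free in gnotobiotic isolators. The groups were mice given C. tropicalis MYA-3404 by oral gavage (2 libraries), mice given C. albicans SC5314 the same way (3 libraries) and controls (3 libraries). Both are yeasts of the genus Candida, and the stated dose was 100000000 colony-forming units, with colonization lasting to day 30. Replicates carry numbers, but no label says they came from different animals; p-values therefore describe library-to-library spread, part of which may be technical. The labels name the colon only and do not say which length or segment of it was taken.

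Libraries held 16195376 to 19761098 counts. Levels within a gene are CPM (counts scaled by library total and TMM factor), and levels of different genes are compared as CPM per kb of exon. Where a library had 0 counts of a gene, its level could still be as high as 3 counts, which is 0.157 to 0.183 CPM by library and covers counting error only. Among markers of other tissues, the stratified squamous list summed to 6.97 and 5.89 CPM in C. tropicalis libraries, 4.05, 4.09 and 5.67 CPM in C. albicans libraries and 5.08, 3.57 and 5.54 CPM in controls. Within it Krt14 had 4.74 and 3.57 CPM with C. tropicalis and 0.894 to 1.95 CPM elsewhere, while Sbsn had 0.742 and 1.02 against 1.73 to 2.8 CPM. The small intestine or caecum list had 5 members higher and 4 lower with C. tropicalis than with C. albicans. In it Fabp2 had 7.54 and 15 CPM with C. tropicalis, 50.4, 215 and 96.3 CPM with C. albicans and 187, 55.2 and 7.37 CPM in controls. Krt14, Sbsn and Fabp2 are named after their values were seen. The 15 epithelial markers summed to between 27283 and 37308 CPM in every library, a sum that hides swings of single members. Car1, named after its values were seen, had 2231 and 2255 CPM with C. tropicalis, 306, 432 and 179.5 CPM with C. albicans and 243, 388 and 1602 CPM in controls. Sums of smooth muscle markers stand beside the results they move with.

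Upstream sequences are shown for 4 members: Hoxd13, the most variable member, Hoxd11, Hoxd8, which lies in the same cluster and did not share its pattern, and Hoxa13, the paralogue of Hoxd13 with a steady level. Each run is the 250 bases before the RefSeq start on GRCm38.p6, read 5′ to 3′ on the strand of the gene, with the bases of CpG sites in capitals. The windows are chr2:74667975-74668224 (plus strand), chr2:74679308-74679557 (plus strand), chr2:74704365-74704614 (plus strand) and chr6:52260881-52261130 (minus strand).
Hoxd13: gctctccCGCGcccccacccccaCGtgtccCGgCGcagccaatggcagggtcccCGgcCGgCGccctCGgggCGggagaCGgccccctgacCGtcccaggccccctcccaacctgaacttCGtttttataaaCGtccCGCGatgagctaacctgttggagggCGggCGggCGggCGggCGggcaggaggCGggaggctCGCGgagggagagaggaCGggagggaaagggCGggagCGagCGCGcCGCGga
Hoxd11: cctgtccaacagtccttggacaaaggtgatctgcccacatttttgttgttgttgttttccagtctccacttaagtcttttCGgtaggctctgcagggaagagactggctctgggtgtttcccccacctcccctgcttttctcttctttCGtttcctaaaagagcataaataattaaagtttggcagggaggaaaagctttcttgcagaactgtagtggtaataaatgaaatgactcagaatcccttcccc
Hoxd8: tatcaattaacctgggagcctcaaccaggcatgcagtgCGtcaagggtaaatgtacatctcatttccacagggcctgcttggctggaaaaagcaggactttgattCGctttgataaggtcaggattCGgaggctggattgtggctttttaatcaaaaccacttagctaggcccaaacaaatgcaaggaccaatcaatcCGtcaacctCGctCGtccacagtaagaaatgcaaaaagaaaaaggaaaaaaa
Hoxa13: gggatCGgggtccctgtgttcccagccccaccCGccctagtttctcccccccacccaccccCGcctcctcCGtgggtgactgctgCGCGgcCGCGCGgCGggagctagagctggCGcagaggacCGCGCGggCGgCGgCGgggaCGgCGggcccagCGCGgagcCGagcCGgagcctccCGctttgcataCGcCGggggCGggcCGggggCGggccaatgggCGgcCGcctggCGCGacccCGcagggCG

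In the 250 bases shown, Hoxd13 held 31 CpG sites, Hoxd11 2, Hoxd8 6 and Hoxa13 35. The RefSeq start of Hoxd13 lies 85 bases from the start in the annotation used for counting exons. Of the 38 members, 22 had an entry in the RefSeq promoter table, whose windows run 250 bases before to 50 after the start. Over these longer windows the 22 had a median of 13.5 CpG sites (4 to 45), against 7.0 over all 32851 promoters. Of the 22, 18 lay above the median of all promoters. In the longer windows Hoxd13 held 37 sites, Hoxd11 4, Hoxd8 6 and Hoxa13 45. A total of 3 motifs were searched on both strands. CAATAAA, a form bound by posterior HOX and CDX proteins, was in 2 of the 22 Hox windows (9.09%, Hoxb8 and Hoxd4) and in 4.6% of all promoters. CGTAAA, its CpG form, was in 2 (9.09%, Hoxb8 and Hoxd11) and in 3.03% of all. The Hoxd11 match did not lie within the 250 bases shown. The direct repeat of AGGTCA with 5 bases between, bound by retinoic acid receptors, was in 0 of the 22 and in 0.00913% of all. A match describes letters in the window and not a bound site.

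The highest Hox member in these colons was Hoxb13, the last gene of the Hoxb cluster. Its mean was 272 CPM per kb over the 8 libraries (70.1 to 469), rank 170 among the 16107 genes tested, and it lay above the next member in all 8. Hoxd13 came second by mean at 39.0 CPM per kb, but ran from 0.803 to 121 and lay above Hoxb9, the next member, in 3 libraries only. Hoxb9, a gene of thoracic and more posterior segments, had 26.3 CPM per kb (23.0 to 30.4), and Hoxa13 had 24.4 (18.4 to 31.0). The order of Hoxb9 over Hoxa13 held in 5 of 8 libraries, both with C. tropicalis and all 3 controls. In all 3 C. albicans libraries Hoxa13 lay above Hoxb9. Whether the order differs between groups was not tested.

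The middle of the order was held by the Hoxa cluster. Hoxa10, known for patterning of the uterus in mice, averaged 17.0 CPM per kb over the 8 libraries. Hoxa5, which acts in lung and gut development in mice, averaged 15.1 CPM per kb, and Hoxa7, a trunk gene, averaged 15.0. Hoxa5 lay above Hoxa7 in 4 of 8 libraries. Hoxa9, also a regulator of blood progenitors, followed at 10.5 CPM per kb and lay above Hoxa6 (5.78) in all 8 libraries. Hoxa3, which acts in the thymus and parathyroid, closed the first 10 at 4.83 CPM per kb. The other 16 members tested had means of 0.25 to 2.91 CPM per kb.

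Hoxc genes were nearly absent. The cluster held between 0.0207% and 0.218% of the summed Hox level in any library. Hoxc4, a gene also known for a role in antibody class switching in mouse B cells, was the single Hoxc member past the filter, with 94 counts over the 8 libraries. Hoxc10, Hoxc11, Hoxc12, Hoxc13 and Hoxb1 had 0 counts throughout. The other 7 members under the filter had between 1 and 39 counts in all, from Hoxd1 with 1 to Hoxd4 with 39.

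**Figure D1:**
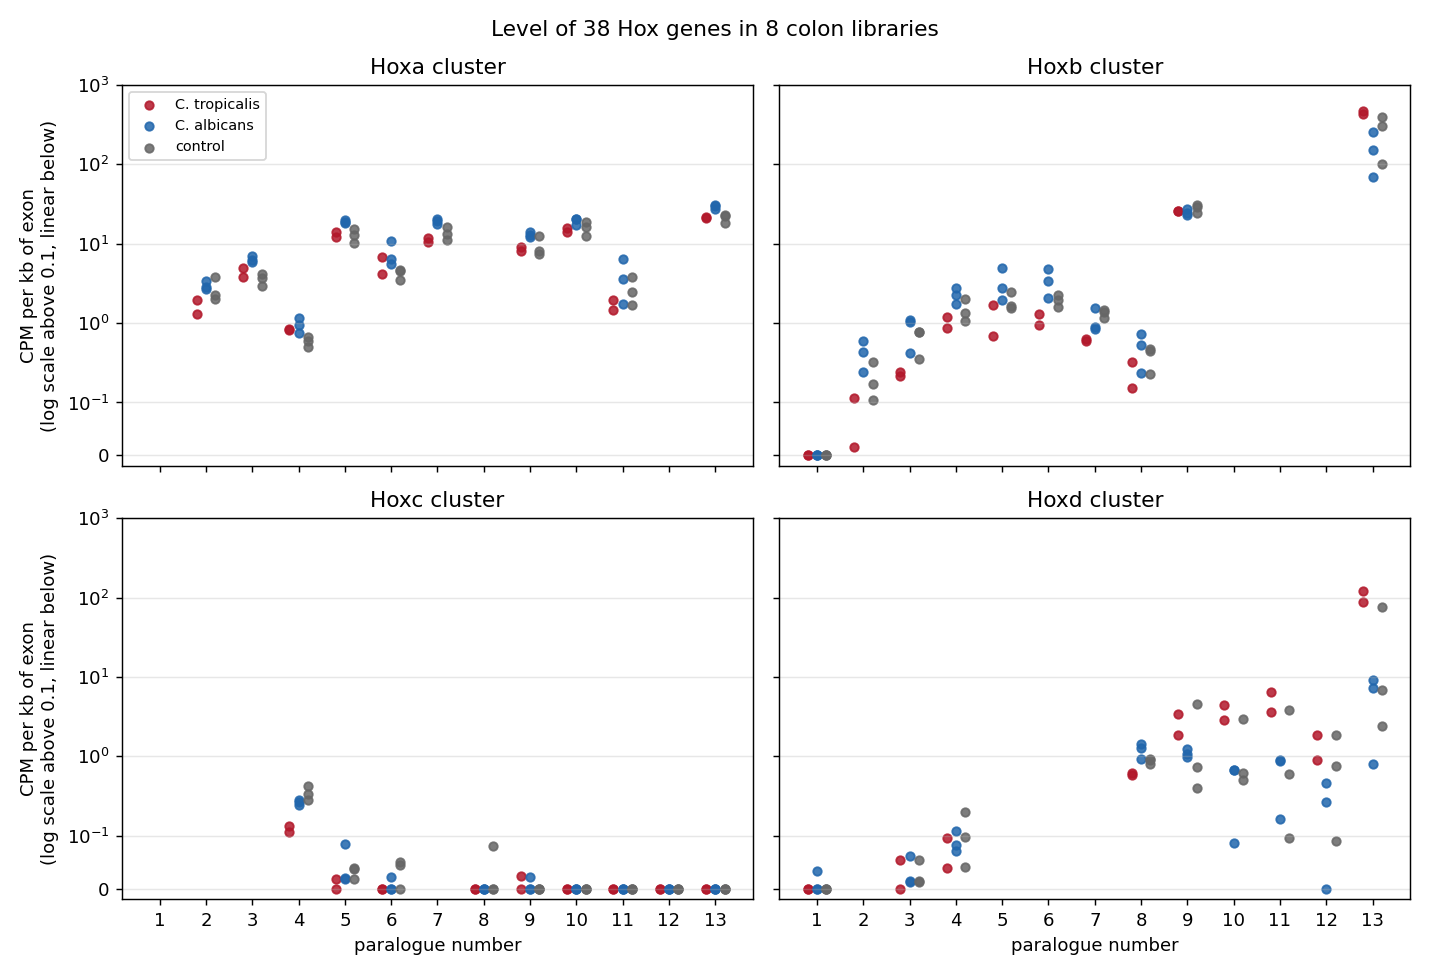
Level of each of the 38 Hox genes in each library (y axis: CPM per kb of exon, log scale above 0.1 and linear below; x axis: paralogue number; 1 panel per cluster). Points are libraries coloured by group; Hoxb13 is the highest gene, Hoxc genes lie near 0, and Hoxd genes numbered 9 to 13 spread far more than their Hoxa counterparts.

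Where exons overlap, counts of a member can include or lose reads of its neighbour, since the library kit does not keep the strand. Exon bases were shared with another gene in 15 of the 38 members. Hoxa11 shared 35.0% of its exon bases with its antisense transcript Hoxa11os, which had 3842 counts against 948 for Hoxa11, and Hoxb3 shared 52.9% with Hoxb3os, which had 58 counts against 370. Hoxb2 shared 27.3% with Hoxb3os and had 124 counts. Levels of Hoxa11, Hoxb3 and Hoxb2 are uncertain for that reason.

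The spread over the libraries differed widely among members. On log2(CPM + 0.5), Hoxd13 had an SD of 2.54 over the 8 libraries, rank 14 of 16107 genes, Hoxd11 1.82 (rank 51), Hoxd10 1.28 (rank 188), Hoxd12 1.24 (rank 215), Hoxb13 1.03 (rank 378) and Hoxd9 0.97 (rank 436). Over all genes the median SD was 0.28. Hoxb9 was at the other end with 0.14 (rank 14690), and Hoxa13 (0.26) and Hoxa10 (0.25) also lay under the median.

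Hoxd13 had 300.3 and 220.1 CPM in C. tropicalis libraries, 17.9, 1.99 and 22.8 CPM in C. albicans libraries and 5.94, 17.0 and 188 CPM in controls. Both C. tropicalis libraries were high, all 3 C. albicans libraries were low, and the controls were split, with control 3 near C. tropicalis and the other two among the C. albicans values. The highest library had 151 times the level of the lowest.

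Hoxd11, which acts with Hoxd13 in the limbs and the urogenital tract, had 27.6 and 15.5 CPM in C. tropicalis libraries, 3.71, 0.682 and 3.78 CPM in C. albicans libraries and 0.400, 2.56 and 16.3 CPM in controls. Hoxd10, a gene of the lumbar and sacral body, had 8.17 and 5.27 CPM with C. tropicalis, 1.24, 0.157 and 1.22 CPM with C. albicans and 0.914, 1.13 and 5.38 CPM in controls. Both resembled Hoxd13: the C. tropicalis libraries and control 3 were high and the others low.

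Hoxd12, next to Hoxd13 in the cluster, had 4.68 and 2.27 CPM with C. tropicalis, 0.675, 0 and 1.16 CPM with C. albicans and 0.228, 1.91 and 4.68 CPM in controls. Hoxd9 had 7.20 and 4.02 CPM with C. tropicalis, 2.08, 2.62 and 2.32 CPM with C. albicans and 0.857, 1.55 and 9.73 CPM in controls. For both genes the C. tropicalis values lay above all C. albicans values and overlapped the controls, and for Hoxd12 the highest C. tropicalis library and control 3 had the same level to 3 digits.

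The pattern ended between Hoxd9 and Hoxd8, whose annotated ends are at 74700208 and 74704615 on chromosome 2 (GRCm38). Hoxd8, a gene of the trunk, had 1.71 and 1.59 CPM with C. tropicalis, 2.53, 3.99 and 3.48 CPM with C. albicans and 2.23, 2.44 and 2.53 CPM in controls. Here the C. tropicalis libraries were the lowest of the 8, and control 3 stood with the other controls. Per kb, Hoxd13 had 194 and 153 times the level of Hoxd8 with C. tropicalis, 7.81, 0.553 and 7.25 times with C. albicans and 2.95, 7.71 and 82.2 times in controls. Whether Hoxd8 differed from its neighbours in response was not tested.

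**Figure D2:**
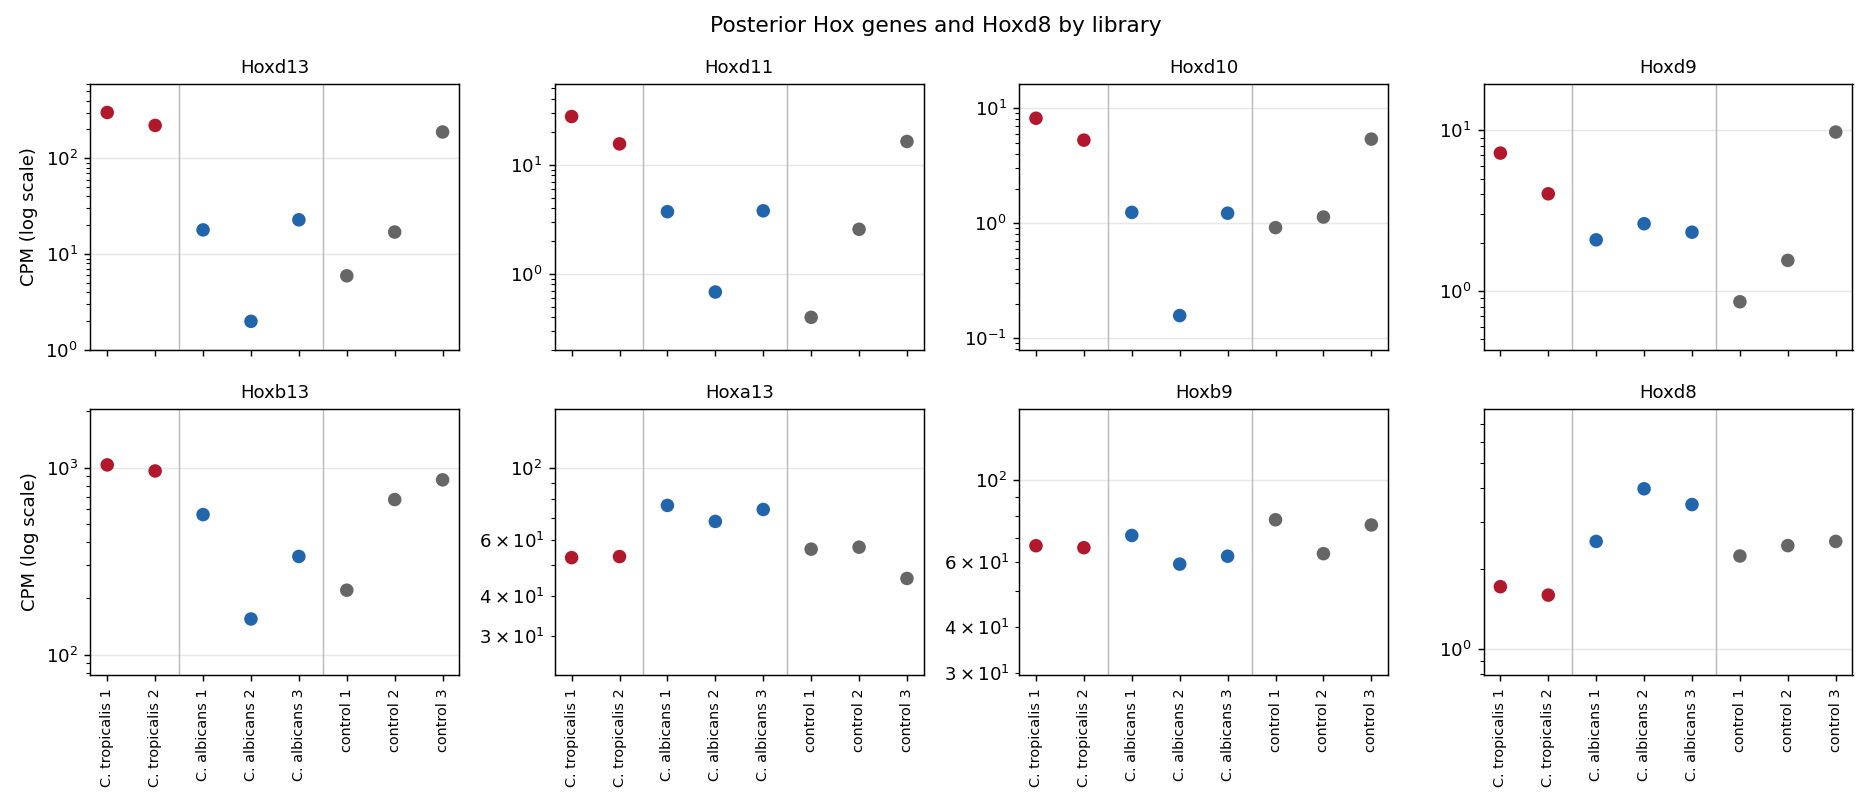
CPM (log scale) of 7 posterior Hox genes and Hoxd8 in each of the 8 libraries, 1 panel per gene. Hoxd13, Hoxd11, Hoxd10 and Hoxd9 are high in both C. tropicalis libraries and in control 3, while Hoxb9 stays between 59.3 and 78.2 CPM.

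Hoxb13 had 1035 and 960.5 CPM in C. tropicalis libraries, 561, 155 and 335 CPM in C. albicans libraries and 221, 675 and 861 CPM in controls. Its C. tropicalis values lay above the other 6, and control 1 and C. albicans 2 were lowest. Hoxa13 had 52.7 and 53.1 CPM with C. tropicalis, 76.6, 68.3 and 74.4 CPM with C. albicans and 56.0, 56.8 and 45.4 CPM in controls. The C. albicans values of Hoxa13 lay above the other 5. The paralogues of group 13 thus stood in different proportion in each library: per kb, Hoxd13 had 5.68 and 4.13 times the level of Hoxa13 with C. tropicalis, 0.232, 0.0291 and 0.305 times with C. albicans and 0.106, 0.298 and 4.12 times in controls.

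As a share of the summed Hox level per kb, members numbered 9 to 13 took 93.9% ± 0.254 in C. tropicalis libraries (SD, n = 2), 77.5% ± 6.80 in C. albicans libraries (n = 3) and 86.9% ± 8.12 in controls (n = 3). By library the share was 94.1% and 93.7% with C. tropicalis, 83.8%, 70.3% and 78.5% with C. albicans and 77.6%, 90.4% and 92.7% in controls. The C. tropicalis range lay above both others, while the C. albicans and control ranges overlapped. Hoxb13 is itself one of these members, and alone it took 65.1% and 67.3% with C. tropicalis, 60.2%, 30.2% and 46.4% with C. albicans and 40.5%, 70.9% and 66.0% in controls. The other posterior members took 29.0% and 26.4% with C. tropicalis, 23.6%, 40.02% and 32.1% with C. albicans and 37.1%, 19.4% and 26.7% in controls, and all 3 ranges overlapped. These are percents of the sum over all members, Hoxb13 included, so they fall where Hoxb13 is high. A share with Hoxb13 taken out of the sum as well was not computed. The level-weighted mean paralogue number was 12.2 and 12.2 with C. tropicalis, 11.2, 9.77 and 10.7 with C. albicans and 10.3, 11.8 and 12.1 in controls.

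The shares of group 13 and of clusters A and D differed between libraries as well. Group 13 held 84.8% and 84.3% of the Hox level with C. tropicalis, 69.2%, 42.5% and 58.4% with C. albicans and 50.7%, 77.9% and 81.8% in controls. The Hoxd cluster held 19.1% and 15.3% with C. tropicalis, 2.62%, 1.67% and 4.19% with C. albicans and 1.80%, 2.44% and 15.2% in controls. The Hoxa cluster held 11.7% and 12.7% with C. tropicalis, 28.9%, 51.2% and 38.2% with C. albicans and 41.2%, 19.4% and 12.5% in controls. Control 3 had shares close to those of C. tropicalis in each case, and control 1 lay among the C. albicans libraries.

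Summed levels, in place of shares, separate the clusters. The Hoxd cluster summed to 138 and 98.7 CPM per kb with C. tropicalis, 11.1, 3.87 and 13.7 with C. albicans and 4.45, 10.5 and 90.1 in controls. The Hoxa cluster had the narrower range, with 84.1 and 81.9 CPM per kb with C. tropicalis, 122, 119 and 125 with C. albicans and 102, 83.8 and 74.0 in controls.

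**Figure D3:**
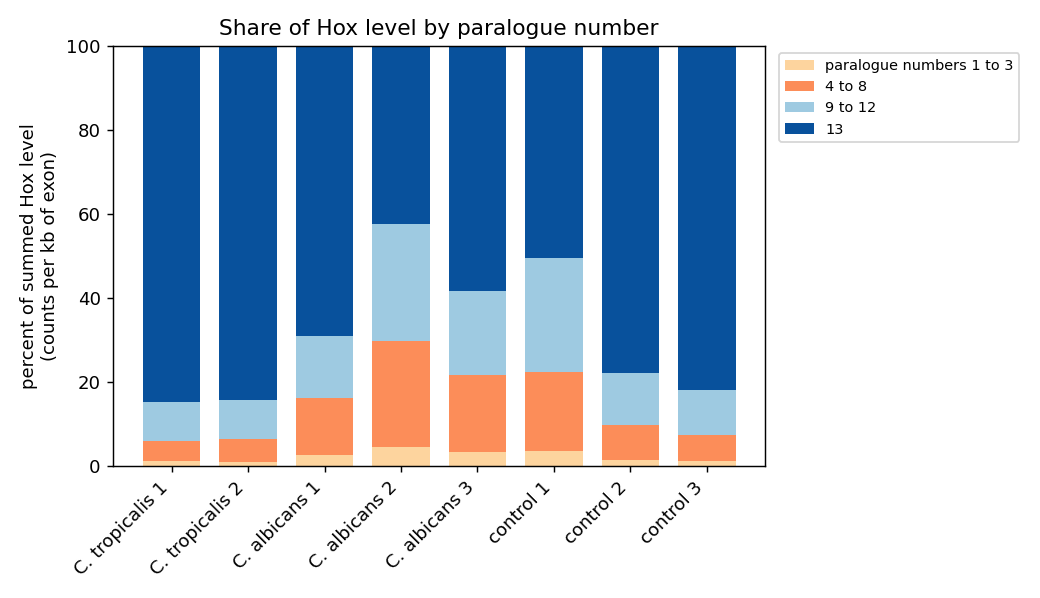
Share of the summed Hox level (counts per kb of exon, in percent) held by paralogue numbers 1 to 3, 4 to 8, 9 to 12 and 13 in each library. Group 13 holds over 80% in both C. tropicalis libraries and in control 3 and 42.5% in C. albicans 2.

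C. tropicalis colons were compared with C. albicans colons to ask whether the 2 species leave different Hox profiles. Members numbered 1 to 8 all had lower estimates with C. tropicalis (15 of 15 tested, median log2 fold change -1.01), and those numbered 9 to 13 had 7 higher and 4 lower (median 1.26), against a median of 0.04 over all genes. In all 7 of 26 members were higher, against 53.7% of all genes. Every Hoxa member tested, including Hoxa13, had a lower estimate, while the higher ones were Hoxb13, Hoxd9 to Hoxd13 and, at 0.04 ± 0.14, Hoxb9. No member passed at an adjusted p of 0.05 in the edgeR quasi-likelihood test with Benjamini-Hochberg adjustment, where 0% of all genes passed. At an unadjusted p under 0.05 there were 17 of 26 members, against 23.2% of all genes. At an adjusted p under 0.1 there were 6 members, against 9.19% of all genes.

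Those 6 were Hoxa7, Hoxa13, Hoxb2, Hoxb3 and Hoxb6, all lower with C. tropicalis, and Hoxd10, higher. Hoxb2 is outside the rule for named genes and is given after its values were seen. It had 0.0571 and 0.397 CPM with C. tropicalis, which are 1 and 7 counts, and 0.843, 2.05 and 1.52 CPM with C. albicans. Its log2 fold change was -2.66 ± 0.79 (SE, edgeR adjusted p = 0.0963) and rests on these few counts. Hoxa7 had 33.6 and 30.1 CPM with C. tropicalis and 56.0, 50.4 and 58.7 CPM with C. albicans (log2 fold change -0.79 ± 0.17, SE, edgeR adjusted p = 0.0669). Hoxb6 had 1.88 and 2.55 CPM with C. tropicalis and 4.10, 9.34 and 6.65 CPM with C. albicans (log2 -1.59 ± 0.39, adjusted p = 0.0694). The groups were apart for both, as for 45.9% of all genes.

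Hoxb3 had 0.914 and 1.02 CPM with C. tropicalis and 1.80, 4.41 and 4.63 CPM with C. albicans (log2 -1.89 ± 0.53, adjusted p = 0.0863). The estimate for Hoxa13 was -0.47 ± 0.14 (adjusted p = 0.0981). Of the posterior genes, Hoxd10 was estimated at 2.95 ± 0.86 (adjusted p = 0.0937), Hoxd13 4.20 ± 1.31 (adjusted p = 0.106), Hoxd11 2.99 ± 1.11 (adjusted p = 0.153) and Hoxb13 1.51 ± 0.57 (adjusted p = 0.162). These 4 estimates were large beside that of Hoxa13, and so were their errors. Groups were apart for 6 members that were higher (Hoxb13, Hoxd9, Hoxd10, Hoxd11, Hoxd12 and Hoxd13, background 23.4%) and 15 that were lower (background 22.4%).

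The other lower members with groups apart included Hoxa9, Hoxa10, Hoxb4 and Hoxb5. Hoxa9 had 50.4 and 44.6 CPM with C. tropicalis and 67.2, 71.8 and 78.6 CPM with C. albicans, and Hoxa10 had 45.9 and 52.0 CPM against 56.7, 66.9 and 67.4 CPM in the same groups. Hoxb5, which acts in the neural crest cells that build the enteric nervous system, had 1.94 and 4.76 CPM with C. tropicalis and 5.40, 13.7 and 7.80 CPM with C. albicans. Hoxb4, known from blood stem cells, had 2.23 and 3.06 CPM with C. tropicalis and 4.44, 7.14 and 5.85 CPM with C. albicans. None of these 4 reached an adjusted p under 0.1.

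Control values of Hoxa9, Hoxa10, Hoxb4 and Hoxb5 overlapped the ranges of both species, and those of Hoxb6 overlapped the C. albicans range only. In controls Hoxa9 had 69.5, 45 and 41.3 CPM and Hoxa10 had 61.9, 52.8 and 40.8 CPM. Control 1 was the highest control for both, and controls 2 and 3 lay at or near the C. tropicalis values. In controls Hoxb4 had 5.20, 2.74 and 3.44 CPM, Hoxb5 had 6.80, 4.35 and 4.63 CPM and Hoxb6 had 4.46, 3.16 and 3.82 CPM, again with control 1 highest. Hoxb9 differed little anywhere, with 66.5 and 65.7 CPM with C. tropicalis, 70.9, 59.3 and 62.3 CPM with C. albicans and 78.2, 63.3 and 75.7 CPM in controls.

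The calls near the threshold moved with the test and with single libraries. DESeq2 called 8 members (7 lower, and Hoxd10 higher), beside 1737 of 16107 genes, and limma-voom called 0 members and 0 genes. A fit of these 2 groups alone called 5 members, beside 858 of 15691 genes. Without control 3, which enters only through the shared spread, Hoxd13 passed at an adjusted p of 0.0303, Hoxd10 at 0.0392 and Hoxa7 at 0.0279. Without control 1, Hoxa7 passed at 0.0382 and Hoxd13 at 0.0499, and Hoxa9 also passed. Without C. albicans 1, Hoxa7 (0.0468), Hoxb3 (0.0264) and Hoxb6 (0.0212) passed. Of all genes, 897 of 15957 passed without control 3, 925 of 15995 without control 1 and 1315 of 16044 without C. albicans 1. Over the alternatives that gave one, the adjusted p ran from 0.0275 to 0.838 for Hoxd13, 0.00764 to 0.921 for Hoxd10 and 0.0019 to 0.77 for Hoxa7. DESeq2 gave Hoxd13 no adjusted p in any comparison.

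Smooth muscle markers moved with these differences. The 18 markers summed to 5522 and 7177 CPM in C. tropicalis libraries, 13120, 36913 and 21185 CPM in C. albicans libraries and 18010, 14435 and 9445 CPM in controls. All 18 were lower in C. tropicalis than in C. albicans libraries (median log2 -1.70), with none past an adjusted p of 0.05 and 16 under 0.1. The 15 markers of enteric neurons and glia were lower too (median log2 -1.46), as were 9 of 10 adipocyte markers tested (median -2.07, 3 under an adjusted p of 0.1) and 5 of 6 mesothelial markers (median -1.79), the exception being Krt19, which is also an epithelial marker. Adipocyte markers summed to 207 and 199 CPM with C. tropicalis, 416, 429.7 and 285 CPM with C. albicans and 240, 397 and 518 CPM in controls. Fibroblast markers were lower in 11 of 12 (median -0.50, 4 under an adjusted p of 0.1). Endothelial markers were lower in 9 of 10 (median -0.45, 3 under 0.1). All 10 B cell markers were higher (median 0.95), and T cell markers were 5 higher and 5 lower. Of the marker lists, only smooth muscle was entered in a model, and the part of the others in the Hox differences was not tested. In bulk tissue, fewer cells of a type and less RNA per cell cannot be told apart.

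Adding the smooth muscle score to the model turned the estimates between the species to -1.28 for Hoxd13, -1.62 for Hoxd12, -1.62 for Hoxd11, -0.39 for Hoxd10, -0.95 for Hoxd9 and -0.64 for Hoxb13. Hoxa11 turned to 1.11 ± 0.38, from -1.21 ± 0.54 without the score, and Hoxa4, Hoxa10, Hoxb5 and Hoxb9 turned sign to values between -0.15 and 0.16. Other members kept their direction, with -0.64 ± 0.30 for Hoxa7, -0.42 ± 0.25 for Hoxa13 and -0.90 ± 0.28 for Hoxa3, sizes near or above those without the score but with larger errors. Hoxb3 had -1.08 ± 0.84 and Hoxb6 -0.50 ± 0.50. No member passed the threshold with the score in the model, beside 0 of 16107 genes. At an unadjusted p under 0.05 in edgeR there were 2 of 26 members, Hoxa3 and Hoxa11, beside 972 of 16107 genes. Both C. tropicalis libraries had lower scores (-1.21 and -0.86) than the other 6 (-0.55 to 1.39), so species and score cannot be told apart fully.

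**Figure D4:**
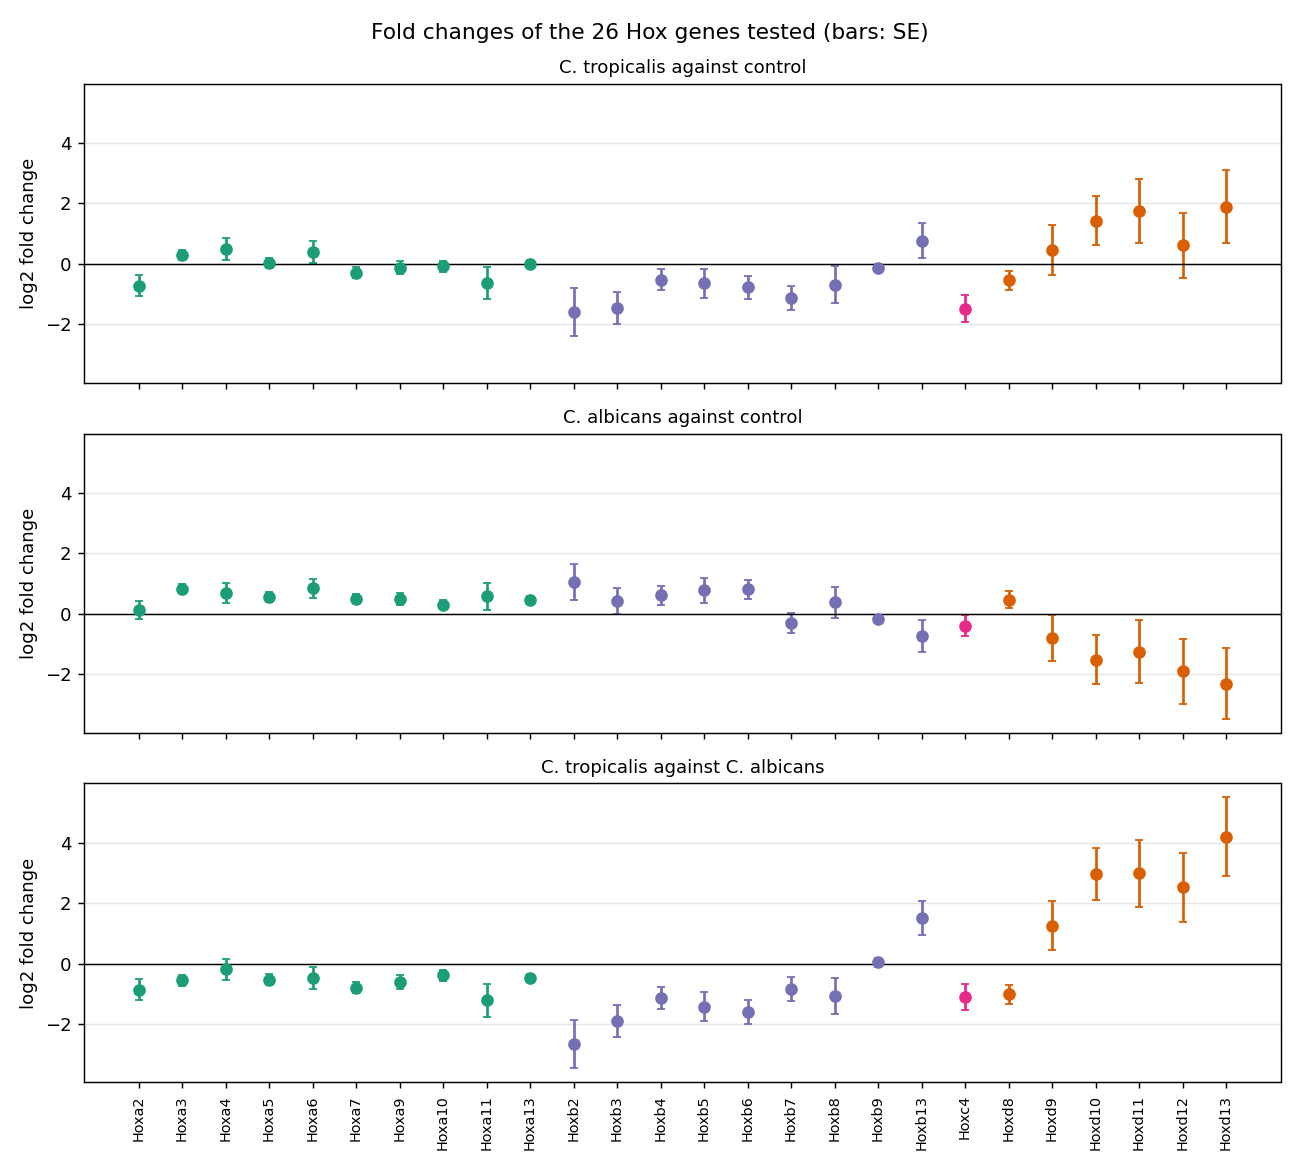
Log2 fold change of each of the 26 Hox genes tested (points, with bars for the SE) in the 3 comparisons, named above the panels; colours mark the clusters. Between the species, genes numbered 1 to 8 lie under 0 and Hoxd9 to Hoxd13 and Hoxb13 above it.

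C. tropicalis colons against controls asked what colonization with that species adds to the germ-free state. Of 26 members, 11 had higher and 15 lower estimates (median log2 -0.13, against -0.02 over all genes), and 47.9% of all genes were higher. None passed in edgeR's quasi-likelihood test, where 0.031% of all genes passed. DESeq2 and limma-voom also called 0 members, beside 393 and 4 of 16107 genes. DESeq2 gave no adjusted p for Hoxc4 or Hoxd13 and so could not call them. At an unadjusted p under 0.05 there were 3 members, against 15.4% of all genes, and 0 at an adjusted p under 0.1 (all genes 0.0621%). Members numbered 1 to 8 were mostly lower (11 of 15, median -0.65), and those numbered 9 to 13 mostly higher (7 of 11, median 0.46). Markers of smooth muscle had lower estimates in 18 of 18 (median -1.01), of enteric neurons and glia in 15 of 15 (-0.91), of adipocytes in 9 of 10 tested (-2.06) and of mesothelium in 5 of 6 (-1.86), none of them past the threshold. Fibroblast markers were lower in 11 of 12 (-0.30), endothelial in 9 of 10 (-0.18) and T cell markers in 10 of 10 (-0.94), also with none past it. Epithelial markers were 8 higher and 7 lower (0.04).

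The 3 with the smallest p were lower with C. tropicalis. Hoxc4 had 0.343 and 0.283 CPM with C. tropicalis and 1.09, 0.715 and 0.860 CPM in controls (log2 fold change -1.48 ± 0.44, SE, edgeR adjusted p = 0.228). Hoxb7, a trunk gene, had 0.914 and 0.963 CPM with C. tropicalis and 2.28, 1.79 and 2.15 CPM in controls (log2 -1.14 ± 0.39, adjusted p = 0.264). Hoxb3 had the C. tropicalis values given above and 3.31, 1.49 and 3.28 CPM in controls (log2 -1.47 ± 0.53, adjusted p = 0.268). Groups were apart for all 3. In C. albicans libraries Hoxc4 had 0.675, 0.630 and 0.732 CPM and Hoxb7 had 1.29, 1.36 and 2.38 CPM, all above the C. tropicalis values.

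Groups were apart for 6 lower members in all (background 16.5%), the others being Hoxa2, Hoxb6 and Hoxd8, and for 3 higher ones, Hoxa4, Hoxb13 and Hoxd13 (background 16%), where 32.5% of all genes had groups apart in either direction. Hoxa2, a gene of the second pharyngeal arch, had 3.48 and 2.32 CPM with C. tropicalis and 6.80, 4.05 and 3.6 CPM in controls, beside 5.96, 4.78 and 5.06 CPM with C. albicans. Hoxa4 had 1.31 and 1.36 CPM with C. tropicalis and 0.800, 0.953 and 1.08 CPM in controls, and 1.2, 1.8 and 1.5 CPM with C. albicans.

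Hoxc4 levels were read beside B cell markers. All 10 had lower estimates with C. tropicalis than in controls (median log2 -1.05), with 0 at an unadjusted p under 0.05 in edgeR and 0 with groups apart. The 10 markers of B cells and follicles summed to 79.4 and 111 CPM with C. tropicalis, 76.0, 14.1 and 64.3 CPM with C. albicans and 20.7, 263 and 332 CPM in controls. Hoxc4 had 19, 12 and 16 counts in controls 1, 2 and 3, so few that its order within the controls is uncertain. The part of B cells in the Hoxc4 difference was not tested.

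For the terminal genes the size of the difference depended on control 3. The log2 estimate was 1.89 ± 1.21 for Hoxd13 (adjusted p = 0.469) and 0.77 ± 0.57 for Hoxb13 (adjusted p = 0.533). Without control 3 the estimates were 4.5 ± 0.94 for Hoxd13 (adjusted p = 0.0616; 0.0616 to 0.907 over all alternatives) and 1.15 ± 0.61 for Hoxb13 (adjusted p = 0.321), and those of Hoxd9, Hoxd10, Hoxd11 and Hoxd12 were 2.22, 2.71, 3.86 and 1.70. Without control 1 the Hoxb13 estimate was 0.38. With the smooth muscle score in the model the estimates were -0.45 for Hoxd13 and -0.52 for Hoxb13.

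C. albicans colons against controls gave higher estimates for 17 of 26 members (median log2 0.45, against -0.02 over all genes, of which 48.2% were higher). The Hoxa cluster was higher throughout, in 10 of 10 members (median 0.53), while Hoxd9 to Hoxd13 and Hoxb13 were lower. Both directions depended in part on control 3: without it the estimates were 0.96 for Hoxd9, -0.24 for Hoxd10, 0.88 for Hoxd11, -0.82 for Hoxd12, 0.30 for Hoxd13 and -0.04 for Hoxa2, the other Hoxa members staying higher. No member passed in edgeR, where 0.0435% of all genes passed. At an unadjusted p under 0.05 there were 7 members, against 15.4% of all genes, and 0 at an adjusted p under 0.1 (all genes 0.267%). Groups were apart for 7 higher members (Hoxa3, Hoxa4, Hoxa5, Hoxa6, Hoxa7, Hoxa13 and Hoxd8; background 9.82%) and 0 lower ones (background 9.57%), where 19.4% of all genes had groups apart in either direction.

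Hoxa3 had 41.9, 35.7 and 37.7 CPM with C. albicans and 22.2, 17.8 and 24.7 CPM in controls (log2 fold change 0.83 ± 0.16, SE, edgeR adjusted p = 0.114). Hoxa13 had the values given above (log2 0.47 ± 0.12, adjusted p = 0.203). Hoxa5 had 34.6, 34.8 and 36.9 CPM with C. albicans and 28.9, 19.2 and 23.8 CPM in controls (log2 0.56 ± 0.16, adjusted p = 0.216). Every C. albicans library lay above every control for these genes, by a margin that was small beside the swings of Hoxd13. In C. tropicalis libraries Hoxa3 had 29.5 and 23.2 CPM and Hoxa5 had 23.0 and 26.1 CPM, under every C. albicans value.

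Hoxa7 had the C. albicans values given above and 46.4, 38.5 and 31.9 CPM in controls (log2 0.50 ± 0.15, adjusted p = 0.236). Hoxa6 had 9.50, 4.78 and 5.55 CPM with C. albicans and 3.94, 4.05 and 3.07 CPM in controls, with C. albicans 1 well above the rest, and 5.88 and 3.68 CPM with C. tropicalis. DESeq2 called Hoxa3 (adjusted p = 0.0015) and Hoxa13 (0.031), beside 461 of 16107 genes, and limma-voom called 0, beside 7 genes. The edgeR fit without a low-count filter called Hoxa3 (adjusted p = 0.0371), beside 119 of 26975 genes. Over all alternatives the adjusted p ran from 0.0015 to 0.438 for Hoxa3 and from 0.031 to 0.547 for Hoxa13. Leaving out any 1 library brought no member past 0.05.

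Hoxd13 was estimated at -2.31 ± 1.17 against controls on the log2 scale (adjusted p = 0.366) and Hoxb13 -0.74 ± 0.52 (adjusted p = 0.496). Without control 3 the Hoxd13 estimate was 0.30 ± 0.79, in the other direction. The Hoxb13 estimate was -0.36 without control 3 and -0.39 without C. albicans 2, but -1.22 without C. albicans 1 and -1.13 without control 1. With the muscle score in the model the Hoxd13 estimate was 0.83, that of Hoxb13 was 0.12 and that of Hoxa11 was -0.36. The smooth muscle markers had higher estimates with C. albicans in 18 of 18 (median log2 0.69) and those of enteric neurons and glia in 15 of 15 (median 0.64). The C. albicans and the C. tropicalis comparison with controls share the same 3 control libraries.

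Hox proteins bind DNA with partners of the TALE class (Pbx, Meis and Pknox). All 9 TALE genes were tested and 0 passed in any comparison. Between C. tropicalis and C. albicans 7 of 9 were lower (median log2 -0.64). Meis2 had 6.68 and 9.01 CPM with C. tropicalis, 16.9, 32.2 and 21.6 CPM with C. albicans and 24.7, 16.3 and 11 CPM in controls. Its log2 fold change was -1.59 ± 0.38 between the species (adjusted p = 0.0692) and -1.14 ± 0.38 against controls (adjusted p = 0.258).

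Caudal factors regulate Hox genes and the identity of intestinal epithelium. Cdx2 had 26.3 and 28.6 CPM in C. tropicalis libraries, 224, 470.1 and 378 CPM in C. albicans libraries and 339, 192 and 26.9 CPM in controls. Control 3 had the level of the C. tropicalis libraries, and the other 5 were several times higher. Its log2 fold change was -2.76 ± 0.85 for C. tropicalis against controls (adjusted p = 0.237, edgeR) and -3.70 ± 0.89 against C. albicans (adjusted p = 0.069). Without control 3 both passed, at -3.28 (adjusted p = 0.0157) and -3.70 (adjusted p = 0.00766). The second also passed without control 1 (adjusted p = 0.0415) and without C. albicans 1 (adjusted p = 0.0398). With the muscle score in the model the estimates were -0.73 and -1.04, and neither passed (adjusted p = 0.0157 to 0.817 and 0.00221 to 0.811 over all alternatives).

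Cdx1, named after its values were seen, did not share that order, with 1467 and 1157 CPM with C. tropicalis, 1141, 1113 and 1259 CPM with C. albicans and 537, 948 and 1112 CPM in controls. Of the 18 caudal and gut regional factors tested, 0 passed in any comparison. Foxf1 and Foxf2, factors of gut mesenchyme and muscle, were lower with C. tropicalis than with C. albicans (log2 -1.22 and -1.04, adjusted p = 0.0676 for each).

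The homeobox genes that flank the clusters beyond the group 13 members followed their neighbours in part. Evx2, next to Hoxd13 and named after its values were seen, had 9.99 and 6.74 CPM with C. tropicalis, 2.42, 0.210 and 3.17 CPM with C. albicans and 1.77, 2.38 and 7.80 CPM in controls, the same 3 libraries being highest as for Hoxd13. Evx1, next to Hoxa13, had 1.26 and 0.510 CPM with C. tropicalis, 4.72, 6.25 and 5.24 CPM with C. albicans and 2.63, 1.79 and 0.914 CPM in controls (log2 -2.60 ± 0.53 between the species, adjusted p = 0.0646). Like Hoxa13, Evx1 was highest in the C. albicans libraries. Of the 18 non-coding and flanking genes tested, 0 passed in any comparison.

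Retinoic acid sets the anterior part of the Hox code in the embryo. Of 16 retinoic acid genes tested, 1 passed: Dhrs3, which turns retinal back to retinol, fell to 22.8 and 20.5 CPM with C. tropicalis, against 52.9, 49.3 and 49.0 CPM in controls, and had 41.4, 45 and 35.6 CPM with C. albicans. Its log2 fold change against controls was -1.22 ± 0.14 (adjusted p = 0.0409, edgeR). The call was lost without any 1 library other than control 3 (adjusted p = 0.0578 to 0.474), and with limma-voom (0.0582), a fit of the 2 groups (0.164) or the muscle score in the model (0.116). The estimate itself moved little, to between -1.14 and -1.29 without 1 library, -1.22 with limma-voom, -1.22 with the 2 groups and -1.14 with the score. The 29 Polycomb and Trithorax genes, which keep Hox genes silent or active, had 0 past the threshold in each comparison and medians of 0.11, 0.10 and 0.00 between the species, for C. tropicalis over control and for C. albicans over control.

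Genes known to differ along the mouse colon were read beside the Hox members. Aqp4, a water channel of the proximal colon, had 28.9 and 46.6 CPM with C. tropicalis, 189, 166 and 172 CPM with C. albicans and 151, 173 and 35.4 CPM in controls. Cyp2c55, a cytochrome of the proximal colon, had 7.54 and 13.1 CPM with C. tropicalis, 52.2, 175 and 116 CPM with C. albicans and 54.7, 28.2 and 25.0 CPM in controls. Aqp4 was low where Hoxd13 was high, in both C. tropicalis libraries and control 3. Neither passed, with log2 fold changes between the species of -2.22 ± 0.57 (adjusted p = 0.0747) and -3.47 ± 0.58 (adjusted p = 0.0646).

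Ly6g, which is also a neutrophil antigen, and Insl5, a hormone of distal colon, were listed as distal. Ly6g had 225 and 234 CPM with C. tropicalis, 156, 21.6 and 77.4 CPM with C. albicans and 28.8, 172 and 133 CPM in controls. Its order of libraries was that of Hoxb13 at the ends, highest in C. tropicalis and lowest in C. albicans 2 and control 1. Insl5 had 78.1 and 80.8 CPM with C. tropicalis, 135, 66.1 and 84.6 CPM with C. albicans and 112, 151 and 84.3 CPM in controls, and did not share it. Since the labels do not give the segment taken, a difference in position along the colon and a difference between groups cannot be told apart.

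**Figure D5:**
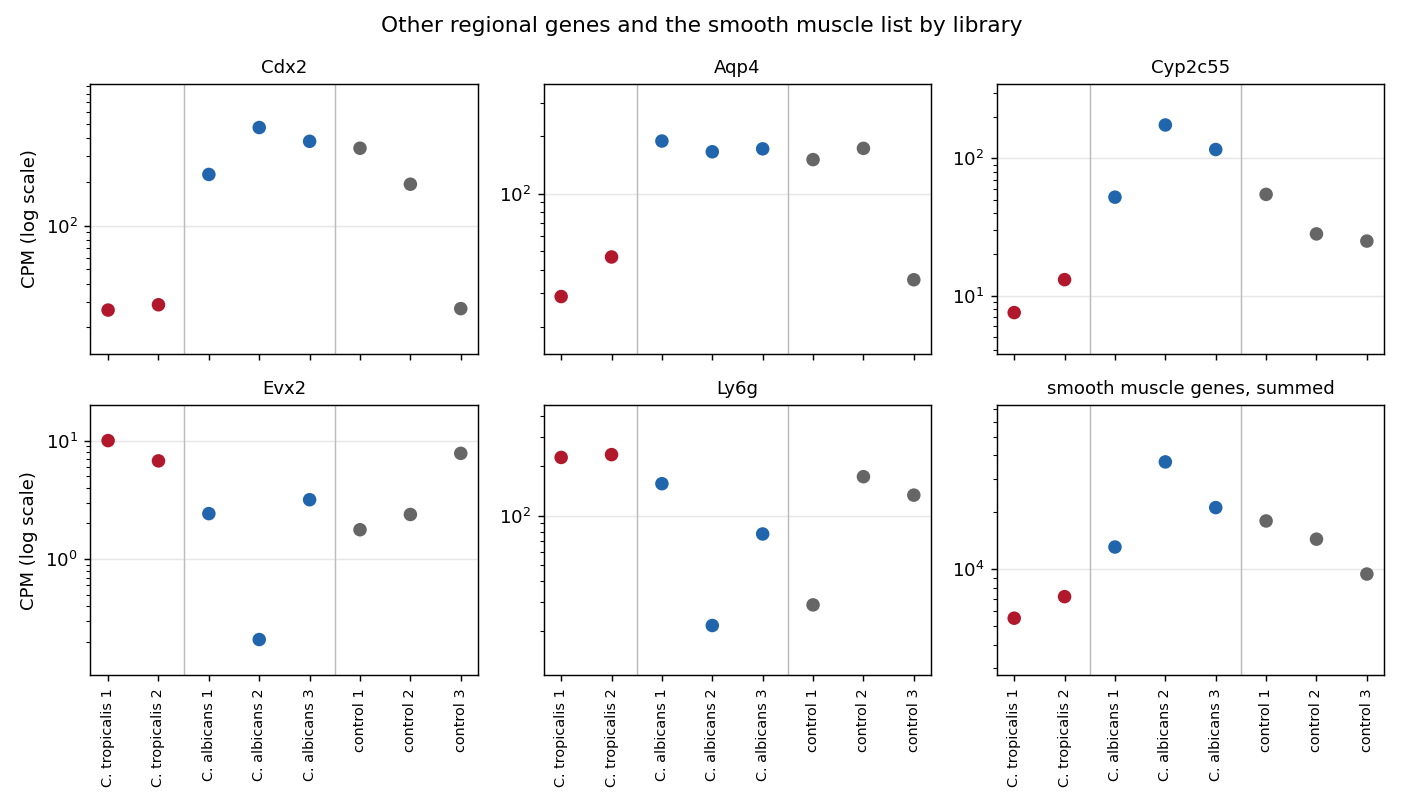
CPM (log scale) in each library of Cdx2, Aqp4, Cyp2c55, Evx2 and Ly6g, and of the 18 smooth muscle markers summed. Cdx2 and Aqp4 are low in both C. tropicalis libraries and in control 3, where Evx2 is high.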

How the data were processed

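The authors deposited 1 table of counts, whole numbers of reads per Ensembl gene for 8 libraries, not normalized. Per the submitters' processing notes, the tools were TopHat2 2.0.12, HTSeq (written as 6.1), DESeq 1.18.0, on mm10. Which annotation was counted, on which strand and after which filters is not given in the sources used here. Per the labels' protocols, the library kit was NEBNext Ultra RNA, which leaves reads unstranded. Symbols, exons and positions came from GENCODE M21 (GRCm38), which held 52489 of 52636 identifiers. The other 147 had 0.00317% of counts.

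Tests used edgeR 4.0.16 (R 4.3.3): TMM factors, filterByExpr on the 3 groups (16107 genes tested, 36529 not), 1 quasi-likelihood fit of all 8 libraries (5 residual degrees of freedom) and Benjamini-Hochberg adjustment over all genes of a contrast, with a threshold of 0.05. The common biological coefficient of variation was 0.243. SEs are the absolute log2 fold change over the root of the F statistic. The exon length of a gene is the union of its exons. Groups are called apart where no value of one lies within the range of the other. The smooth muscle score is the mean log2 CPM of 18 markers, centred over the libraries. The fit was tested on counts simulated with the same dispersion for every gene. That setting does not cover members that vary as much as Hoxd13. No 2 libraries of a group agreed within sampling noise (chi-square per gene 21.0 to 80.1), so all were kept.

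Members with values in each library are the 10 highest per kb, those of groups 12 and 13, the 3 with the smallest p in each contrast, and those with groups apart and a mean of at least 1 CPM. Of other lists, members past the threshold and at most 2 with the smallest p are named. The members and lists were chosen with earlier results of these data known. Prac1 and Hotairm2 are not analysed here. Alternatives were DESeq2 1.42.0 (test or size factors), upper-quartile factors, limma-voom (limma 3.58.1), no filter or a minimum CPM of 1 in 3 libraries or more, a fit of 2 groups only, a block for the replicate number, the smooth muscle score as a covariate, a threshold of 0.1, other gene lengths, and each library left out. Those for Dhrs3 and Cdx2 were added after seeing the data.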

Additional observations from a re-analysis of the deposited data

How the results depend on the processing

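The count of Hox members past the threshold was 0 in each comparison in the edgeR fit. For C. tropicalis against C. albicans it was 8 with DESeq2, 5 with no filter, 5 with only the 2 groups, 6 at an adjusted p under 0.1 and 0 to 3 without 1 library. For C. albicans against control it was 2 with DESeq2 and 1 with no filter. All genes past it numbered 7 for C. albicans against control (461 with DESeq2, 119 with no filter, 11 with the muscle covariate, 43 at 0.1, 0 to 254 without 1 library, the highest without C. albicans 1), 5 for C. tropicalis against control (393, 71, 0, 10 and 0 to 192 for the same settings, the highest without control 3, and 0 with only the 2 groups) and 0 for C. tropicalis against C. albicans (1737 with DESeq2, 1127 with no filter, 858 with only the 2 groups, 1481 at 0.1, 0 to 1315 without 1 library, the highest without C. albicans 1). The split of calls also moved: 80.0% were higher for C. tropicalis against control with edgeR and 45.3% with DESeq2. The cause was not tested.

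A selection of 22 gene results was followed, which holds Dhrs3 and Cdx2 beside Hox members and does not cover every member. Of their 197 values under other settings, 189 kept their direction and 20 were newly past the threshold. The 8 that reversed all came with the muscle covariate: Hoxd13 at -1.281, Hoxd11 at -1.624, Hoxd10 at -0.393 and Hoxb13 at -0.637 for C. tropicalis against C. albicans, Hoxd13 at -0.448 and Hoxb13 at -0.522 for C. tropicalis against control, and Hoxd13 at 0.833 and Hoxb13 at 0.115 for C. albicans against control. Without 1 library, 1 of 176 values of the selection reversed (Hoxd13 for C. albicans against control, -2.855 to 0.304, the last without control 3). Members outside the selection also changed sign without 1 library. For C. albicans against control, Hoxd9 ran from -1.27 to 0.96, Hoxd11 from -1.81 to 0.88 and Hoxa2 from -0.04 to 0.46. Others turned with the muscle score, as given above for the comparison of the species. Where 1 C. tropicalis library was left, its spread was taken to be that of the other groups. The posterior share with C. tropicalis was 92.6% by longest transcript and 93.5% with no division by length.

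Whether replicate numbers pair the libraries was not settled. Deviations of same-numbered libraries correlated at 0.156 and 0.147 between the species and -0.019 and 0.029 between C. tropicalis and control. The deviations of the 2 C. tropicalis libraries from their mean mirror each other, so these values cannot decide on pairing. Between C. albicans and control, same-numbered libraries correlated at -0.392, -0.08 and -0.128, and libraries of different number at -0.295 to 0.362. With the replicate block, 0 Hox members and 0 genes passed in each comparison. Depth limits the Hoxc members and Hoxd1, Hoxd3 and Hoxd4, where a few counts decide the level.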
